A study of Mus musculus with 2 samples.

Results

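The nuclear genes of oxidative phosphorylation were followed in single-cell RNA-seq data from the cerebral cortex of C57BL/6 mice. Members were chosen by symbol alone, from gene names beginning with Ndufa, Ndufb, Ndufc, Ndufs, Ndufv, Uqcr, Cox4i, Cox5, Cox6, Cox7, Cox8 or Atp5, together with Sdha, Sdhb, Sdhc and Sdhd. Assembly factors named Ndufaf and symbols that contain -ps were left out, and 90 of the 55450 listed genes remained. They comprise 39 genes of complex I, 4 of complex II, 8 of complex III, 21 of complex IV and 18 of complex V. Ndufa4 and its paralog Ndufa4l2 were counted with complex IV, in which the Ndufa4 protein is now placed. The symbol rule uses no measured value, although the group was picked with earlier results of these data known. Of the 90 genes, 86 are annotated as protein-coding and 4 as processed pseudogenes.

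The study compared a control cortex with the cortex of a mouse model of preterm white matter injury (WMI), and 1 library per group was analysed here. By the labels, the right common carotid artery was ligated at postnatal day 7, hypoxia lasted 1 h, and nuclei were taken at day 14 (2 weeks of age) from the ligated side of WMI mice and the same side of controls. The study's own text describes an earlier operation and sampling, a longer hypoxia, dissociated cells and several animals per group, and its results take the unligated hemisphere as the control. These versions were not reconciled. Both groups share the strain, and the labels name no transgene. With 1 library per group there was no replicate check, no test between groups was possible, and the values in square brackets are 95% intervals that cover counting error only.

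Oxidative phosphorylation joins electron transfer along the inner mitochondrial membrane to the making of ATP. Complex I (NADH dehydrogenase) and complex II (succinate dehydrogenase) pass electrons to ubiquinone, complex III to cytochrome c, and complex IV (cytochrome c oxidase) to oxygen, while complex V (ATP synthase) uses the proton gradient that results. Most subunits are encoded in the nucleus and imported, whereas the mitochondrial genome encodes a small core of complexes I, III, IV and V. Neurons in particular depend on this pathway for ATP, and several subunits exist as paralogs with tissue-restricted expression.

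After filtering, 8755 control and 7571 WMI barcodes were kept, with medians of 4367 and 5043 unique molecular identifiers (UMIs). The libraries shared 27 of the kept barcode sequences. A UMI of Xist, the RNA made from the inactive X chromosome, was found in 5 control and 4804 WMI cells, so that female cells were found almost wholly in the WMI library. The libraries thus lack the like sex mix that hemispheres of the same animals would share. Injury and sex of the animals cannot be told apart in the ratios between the libraries. Mitochondrially encoded RNA took 0.139% of control and 0.596% of WMI UMIs, and cytoplasmic ribosomal protein RNA took 0.147% and 0.218%. Cell classes are called "-like" after marker lists. Of the listed markers, 10 of 10 were highest in their own class for microglia-like, astrocyte-like and mature oligodendrocyte (OL)-like cells and 8 of 9 for excitatory neuron-like cells, while 6 of 8 were for OL precursor (OPC)-like cells. RNA of other classes was present in every class. The 9 excitatory neuron markers summed to 4646 CPM (UMIs for every 1000000 UMIs of the class) in control and 4525 in WMI excitatory neuron-like cells, and still to 2293 and 1843 in microglia-like cells, with no marker at 0. The 10 microglia markers summed to 172 and 544 in astrocyte-like cells, and to 172 and 558 in immature OL-lineage cells, which pool the OPC-like and premyelinating OL (pre-OL)-like classes. The part of these differences in the results was not tested.

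Transcripts of the 90 genes made up a small share of each library. They took 121664 of 57428339 control UMIs (0.212%) and 105945 of 54192334 WMI UMIs (0.195%), with a median of 12 UMIs per cell in both libraries. In the control library 89 of the genes had a UMI, and in the WMI library 87. Together 79 genes reached 200 UMIs over both libraries. The other 11 were the pseudogenes Ndufb4c, Ndufa11b, Ndufs6b and Cox6c2, and the isoforms Cox4i2, Cox6a2, Cox6b2, Cox7a1, Cox8b, Cox8c and Ndufa4l2, which are known from muscle, lung, testis or hypoxic cells. Most UMIs came from Ndufs4 and Ndufs1 in complex I, Sdha and Sdhb in complex II, Uqcrc2 and Uqcrc1 in complex III, Cox8a and Cox4i1 in complex IV, and Atp5b and Atp5o in complex V. Of these, Ndufs4 has 10264 UMIs and an annotated span of 100464 bp, so that counts are not a ranking of expression.

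The symbol Atp5o, the oligomycin sensitivity subunit of ATP synthase, is carried by 2 genes. One (ENSMUSG00000022956) spans 6474 bp on the minus strand (GRCm38 chr16:91925214-91931687). The other (ENSMUSG00000116933) spans 242585 bp (chr16:91684398-91926982, minus strand) and is called the long Atp5o locus here. It runs across Atp5o, Cryzl1 and Donson on the same strand and Itsn1 on the opposite strand. Its UMIs cannot be told apart here from RNA of those neighbours. In all, 41 of the 90 genes overlap another annotated gene. Among those named below these include Cox6c (Vps13b on the opposite strand), Cox4i1 (Emc8 and Gm20388), Ndufa13 (Yjefn3), Ndufc2 (Gm16053), Ndufb11 (Rbm10), Ndufa3 (Tfpt) and Atp5d (Cbarp), and whether counting used strand or introns is not given in the sources used here.

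Levels of the whole group differed more between cell classes than between libraries. Microglia-like cells had the highest control level, with 2876 [2789.7 to 2965] CPM in control and 2908 [2861 to 2955] in WMI cells. Astrocyte-like cells followed in the control library at 2659 [2596 to 2724], and were at 2224 [2172 to 2276] in the WMI library. Neuroblast-like cells, the migrating immature neurons, had 2356 and 2466. The OL lineage lay lower, at 2138 and 2193 in OPC-like, 2126 and 2333 in pre-OL-like, and 1911 and 1605 in mature OL-like cells, for which 92 and 50 cells were available. Interneuron-like cells had 2021 and 2138. Excitatory neuron-like cells had 1929 [1914 to 1944] in control and 1586 [1569 to 1602] in WMI cells. Control intervals of the OPC-like and pre-OL-like stages overlapped, and so did those of mature OL-like and excitatory neuron-like cells. Depth per cell also differed between the classes. Median UMIs per cell were 3124 and 2565 in microglia-like cells against 7860.5 and 9640.0 in excitatory neuron-like cells, and member UMIs per cell were 9.43 and 8.47 against 16.2 and 17.9. Interneuron-like cells, with 9550.0 and 8468 UMIs, lay above excitatory neuron-like cells in level. In the control library they were also deeper, but only with excitatory neuron-like cluster 2 counted, whose control cells had a median of 1745 UMIs. Without that cluster, control excitatory neuron-like cells were deeper than interneuron-like ones and still lower in level. The part of depth in the order was not tested.

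**Figure D1:**
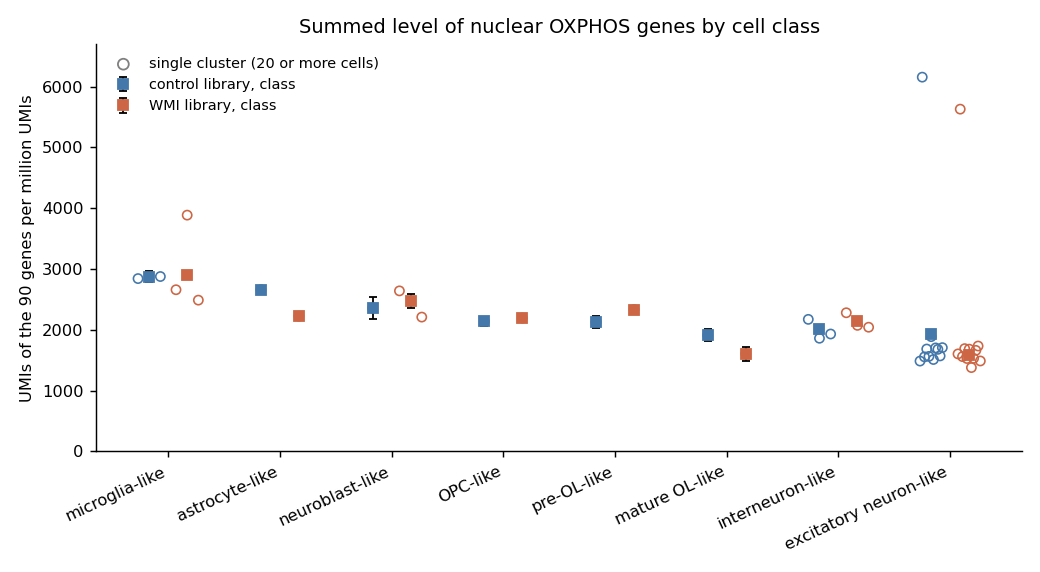
Summed level of the 90 genes in each cluster (CPM) by library, with clusters of at least 20 cells grouped by class and bars for the 95% counting interval. Excitatory neuron-like cluster 2 stands at 6155 in the control library, and microglia-like cluster 9 at 3886 in the WMI library.

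Among interneuron-like clusters, cluster 15 was the highest, at 2172 CPM in control and 2280.2 in WMI cells. Its leading genes include Btbd11, Kcnc2 and Eya4. Kcnc2 encodes a fast potassium channel of rapidly firing interneurons. The cluster led by Adarb2 and Vip had 1861 and 2073, and the cluster led by Sst had 1931 and 2042. All 3 interneuron-like clusters exceeded every excitatory neuron-like cluster of their library apart from cluster 2 and control cluster 14 (1888).

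Summed over neurons (excitatory neuron-like and interneuron-like cells) and over glia (astrocyte-like, microglia-like and all OL-lineage cells), the group was lower in neurons, at 1941 against 2439.6 CPM in control and 1664 against 2477 in WMI cells. Clusters that come to 90% or more from a single library affect these values, and without them the levels were 1641 against 2434 and 1657 against 2227. Of 79 members with enough UMIs (100 over both sides), 9 were at least 1.5-fold lower in control neurons and 53 in WMI neurons, beside 26.3% and 41.6% of all genes counted, and 50 and 25 without those clusters, beside 31.4% and 35.2%. The members' counts were thus below that background in control neurons with all clusters, near it in WMI neurons without those clusters, and above it in the other counts. A single member, Cox7b2, was at least 1.5-fold higher in neurons in each library, beside 17.9% of all genes in the control and 14.6% in the WMI library. Cox7b2, a paralog of Cox7b, had 5.56 in neurons and 3.56 in glia of the control library, and 6.83 and 4.26 in the WMI library. Without those clusters it stayed past 1.5-fold in the control library (beside 16.9% of all genes), while no member passed in the WMI library (beside 16.5%), where the log2 ratio of Cox7b2 was 0.35. The glial sum hides a difference between classes for this gene. Astrocyte-like cells had 5.54 in control and 9.45 [6.38 to 13.5] in WMI cells, near or above the neuron levels. All other glial clusters lay below those levels.

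The lowest neuron to glia ratios belonged to Cox7c and Atp5g2, which encode a small cytochrome oxidase subunit and 1 of the 3 genes for the ATP synthase c subunit, and to Ndufb11, an X-linked subunit of the membrane arm of complex I. Cox7c had 31.6 in neurons and 51.9 in glia of the control library, and 23.7 and 50.7 in the WMI library. It was thus lower in neurons than in pooled glia of both libraries, where Cox7b2 was higher. Atp5g2 had 8.65 and 14.4 in the control library, and 7.67 and 16.2 in the WMI library. Ndufb11 had 9.70 and 16.7, and 12.2 and 22.7. Ndufa10, a long accessory gene of complex I, and the long Atp5o locus were next to Cox7b2 at the other end, with log2 ratios of -0.11 and 0.03 for Ndufa10 and -0.13 and 0.08 for the locus in the control and WMI libraries.

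One excitatory neuron-like cluster carried far more of this RNA per UMI than the others. Cluster 2 held 1167 control and 29 WMI cells, and its level was 6155 CPM in control cells, 3.89-fold that of the other control excitatory neuron-like cells. Its median depth was 1745 UMIs against 10040.0 in the others, and its leading genes (Snhg9, Mrpl41, H2afj) are not excitatory markers. Within the group, short genes differed most. Ndufb11 (2294 bp) had 48.0 in cluster 2 and 6.83 in the others, and Atp5g1 (6819 bp), another gene for the c subunit, had 152 and 21.7. Ndufs4 (100464 bp), an accessory subunit of complex I whose loss causes Leigh-like disease in mice, had 101 and 87.1, and the long Atp5o locus had 63.9 and 63.4. The 52 members under 10000 bp had a median log2 difference of 2.50, and the 27 longer ones of 1.23. Spearman's rho between span and this difference was -0.76 across the 79 members and -0.76 across 10900 protein-coding genes. Genes are not independent replicates, and all points share the same cells. The medians over all protein-coding genes counted were 2.10 and 0.48 in the same length classes.

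Microglia-like cells held a shallow cluster in the other library. Control cells were mainly in cluster 11 (413 cells), whereas WMI cells were mainly in cluster 4 (1033) and cluster 9 (599), with 122 in cluster 11. Cluster 9 had 3886 CPM and a median depth of 1762 UMIs, against 2659 and 2999 in WMI cluster 4, a 1.46-fold difference (1.41 to 1.52). Across 62 members rho between span and the log2 difference was -0.58, with medians of 0.73 for the 41 short and 0.27 for the 21 long ones. Across 7070 protein-coding genes rho was -0.03, so that this relation was not seen over all genes as it was for cluster 2. Clusters 2 and 9 come almost wholly from 1 library. The main library comparisons in these classes are therefore given with and without them. For cluster 9 this choice was made after the data were seen. Some single genes and other gene sets are given only with them. Cluster 4 is also almost wholly from the WMI library, with 21 control cells. Values without cluster 9 therefore still set mainly control cluster 11 against WMI cluster 4.

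Within classes, the question was whether WMI and control cells differed in this pathway. The summed group was lower in WMI than in control astrocyte-like cells, slightly higher in WMI interneuron-like and immature OL-lineage cells, and in excitatory neuron-like and microglia-like cells its ratio turned on the clusters that come from 1 library. In astrocyte-like cells the levels were 2659 and 2224 CPM (control and WMI), a log2 ratio of -0.26 [-0.31 to -0.21]. In excitatory neuron-like cells they were 1929 and 1586, a ratio of -0.28 [-0.30 to -0.26], and without cluster 2 they were 1583 and 1577, a ratio of -0.01 [-0.02 to 0.01]. In interneuron-like cells they were 2021 and 2138 with a ratio of 0.08 [0.04 to 0.12], and in immature OL-lineage cells 2134 and 2266, with a ratio of 0.09 [0.04 to 0.13]. In microglia-like cells they were 2876 and 2908, a ratio of 0.02 [-0.03 to 0.07]. Without cluster 9 they were 2874 and 2637, a ratio of -0.12 [-0.18 to -0.07], and in cluster 11 alone they were 2876 and 2488, a ratio of -0.21 [-0.30 to -0.12]. Over strata of cells by mitochondrial share the immature OL-lineage ratio turned to -0.12 (the 2 lower strata), the interneuron-like one was 0.02 and the astrocyte-like one -0.28. Mature OL-like cells, few in both libraries, had -0.25 [-0.38 to -0.12]. The astrocyte-like class is a single cluster with cells of both libraries, but its makeup differed between them. At the finer resolution of 1.6 it split into a cluster of 413 control and 373 WMI cells and a cluster led by Gfap of 81 control and 220 WMI cells, and Gfap, a filament gene that rises in reactive astrocytes, had 65.7 and 749.9 CPM in the class. The part of this in the ratio was not tested. Shares of all RNA cannot tell fewer such transcripts from more of other RNA.

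The complexes differed in direction. Complex IV was higher in WMI cells of 3 classes. Its log2 ratios were 0.25 [0.15 to 0.34] in interneuron-like cells, 0.36 [0.26 to 0.46] in immature OL-lineage cells and 0.27 [0.23 to 0.31] in excitatory neuron-like cells without cluster 2 (-0.07 with it). It was -0.18 [-0.28 to -0.07] in astrocyte-like cells, and 0.08 [-0.03 to 0.18] in microglia-like cells or -0.12 [-0.23 to -0.01] without cluster 9. Complex V had a negative ratio in all 5 classes. Its values were -0.49 [-0.53 to -0.45] in excitatory neuron-like cells, -0.21 [-0.25 to -0.17] without cluster 2, -0.13 [-0.21 to -0.04] in interneuron-like, -0.44 [-0.53 to -0.34] in astrocyte-like, -0.14 [-0.24 to -0.05] in immature OL-lineage, -0.04 [-0.14 to 0.06] in microglia-like cells and -0.20 [-0.30 to -0.09] without cluster 9. Part of this came from the long Atp5o locus, and in interneuron-like cells most of it. Without the locus the same ratios were -0.47, -0.14, -0.02, -0.40, -0.09, -0.01 and -0.17, given here without intervals. Over the 20 named clusters with cells of both libraries (under 90% from either), complex V was lower in WMI cells in 20, with the interval below 0 in 13, and in 18 without that locus, with the interval below 0 in 9. Complex IV was higher in 15 of the 20, with the interval above 0 in 12. Clusters of a library share its cells' handling and are not replicates.

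**Figure D2:**
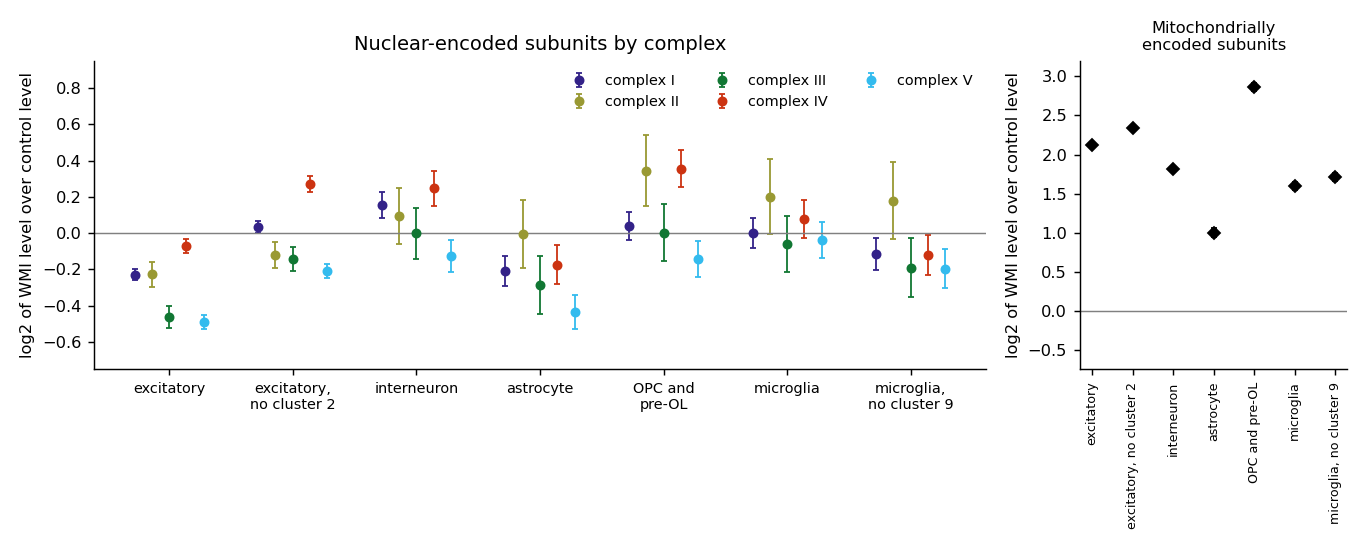
Log2 ratio of WMI to control for the summed genes of each complex, by cell class, with 95% counting intervals, and with excitatory neuron-like cells without cluster 2 and microglia-like cells without cluster 9 as classes of their own. The right panel shows the mitochondrially encoded subunits on a scale of their own, from 1.00 in astrocyte-like to 2.86 in immature OL-lineage cells. Complex V points, with the long Atp5o locus counted, lie below 0 in every class (-0.49 to -0.04), while complex IV reaches 0.36 in immature OL-lineage cells.

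The subunits of the same complexes that the mitochondrial genome encodes were higher in WMI cells of every class. Their summed log2 ratio was 1.00 in astrocyte-like, 1.82 in interneuron-like, 1.59 in microglia-like, 2.12 in excitatory neuron-like and 2.86 in immature OL-lineage cells. Of those with 100 UMIs, 12 of 12 were at least 1.5-fold higher in WMI excitatory neuron-like cells, 7 of 8 in interneuron-like, 7 of 8 in astrocyte-like, 10 of 10 in immature OL-lineage and 9 of 10 in microglia-like cells. Among all genes counted, with mitochondrial ones left out, the shares were 3.42%, 5.09%, 11.9%, 5.9% and 15.2% in the same order. Summed cytoplasmic ribosomal protein genes had log2 ratios from 0.04 in excitatory neuron-like to 0.72 in microglia-like cells. The median over the single ribosomal protein genes was 0.01 in excitatory neuron-like cells and 0.39 without cluster 2. In microglia-like cells that median was 0.72, and 0.64 without cluster 9. Both moved with the library in the classes where the nuclear genes were compared, and their part in those ratios was not tested.

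Counts of single genes were read against every gene that reached 100 UMIs in the class when the libraries were added. In excitatory neuron-like cells 0 of 79 members were at least 1.5-fold higher in WMI cells, beside 3.42% of all genes, and 18 were lower, beside 8.62%. Without cluster 2 there were 3 higher (Cox6a1, Ndufb11 and Ndufc2, beside 5.0%) and 1 lower (the long Atp5o locus, beside 4.51%). In interneuron-like cells 6 of 63 were higher (Atp5e, Cox4i1, Ndufa3, Ndufa13, Ndufc2 and Uqcr11, beside 5.09%) and 1 was lower (the long Atp5o locus, beside 3.06%). In astrocyte-like cells 0 of 59 were higher (beside 11.9%) and 9 were lower (beside 5.6%). Those 9 were Atp5g1, Atp5g3, Atp5j, Atp5k, the long Atp5o locus, Ndufa5, Ndufa11, Ndufa12 and Uqcr11, so that 5 of them belong to complex V. In immature OL-lineage cells 7 of 66 were higher (Atp5mpl, Cox6a1, Cox6c, Cox7a2, Cox8a, Ndufb8 and Ndufc2, beside 5.9%) and 3 were lower (Atp5d, Atp5g1 and the long Atp5o locus, beside 3.6%). In microglia-like cells 3 of 70 were higher (Ndufa13, Ndufb10 and Ndufs5, beside 15.2%) and 4 were lower (Cox5b, Ndufa5, Ndufc1 and the long Atp5o locus, beside 4.29%). Without cluster 9 0 of 63 were higher (beside 16.2%) and 8 were lower (beside 6.74%). The median log2 ratio of the counted members was -0.34 in excitatory neuron-like cells (-0.04 without cluster 2), 0.05 in interneuron-like, -0.25 in astrocyte-like, 0.05 in immature OL-lineage and 0.03 in microglia-like cells (-0.12 without cluster 9). All genes had medians of -0.07 (0.00), -0.01, 0.10, 0.05 and 0.10 (0.11). Lower members thus exceeded the background share in excitatory neuron-like cells with cluster 2, in astrocyte-like cells and in microglia-like cells without cluster 9, higher members exceeded it in interneuron-like and immature OL-lineage cells, and higher members fell short of it in excitatory neuron-like, astrocyte-like and microglia-like cells. Lower members were also slightly above it in immature OL-lineage (4.5%) and microglia-like cells (5.7%). In astrocyte-like cells only 1 member passed 1.5-fold with 200 UMIs as the threshold, where fewer genes are counted. No share over all genes was set beside that count, so whether the excess holds at that threshold was not tested. In what follows, the highest and lowest ratios of a class are taken among members with at least 200 UMIs.

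**Figure D3:**
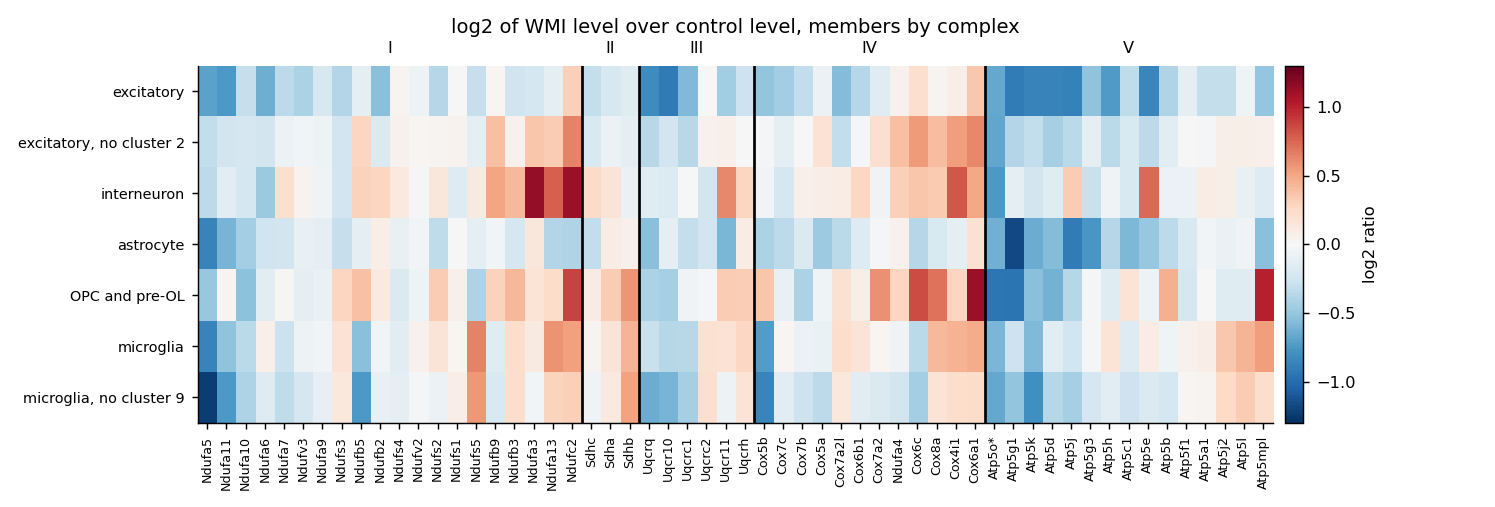
Log2 ratio of WMI to control (colour) for the 56 members with at least 100 UMIs in each class, grouped by complex, with the cell classes as rows, a column for each gene and Atp5o* for the long Atp5o locus. Red marks a higher and blue a lower level in WMI cells, and the long locus is blue throughout.

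In complex I, Ndufc2, a subunit of the membrane arm, was among the members with the highest ratios in 4 of the 5 classes. In interneuron-like cells its level was 18.2 CPM (control) and 39.5 CPM (WMI), a log2 ratio of 1.12 [0.73 to 1.52]. In immature OL-lineage cells it was 22.8 and 41.8 (0.88 [0.44 to 1.32]), in microglia-like cells 29.0 and 42.1 (0.54 [0.05 to 1.05]) and in excitatory neuron-like cells 19.1 and 23.7 (0.31 [0.14 to 0.48]). Astrocyte-like cells had 36.8 and 28.0 (-0.39 [-0.83 to 0.04]). The interval left out 0 in those 4 classes, but Ndufc2 is named for its high ratios there, and no replicate is behind them. Ndufa13, also known as the cell death regulator Grim19, had 22.0 and 37.7 in interneuron-like cells (0.77 [0.40 to 1.15]) and 34.5 and 51.8 in microglia-like cells (0.59 [0.15 to 1.05]). Without cluster 9 the microglia-like ratios were 0.31 [-0.19 to 0.84] for Ndufc2 and 0.29 [-0.17 to 0.77] for Ndufa13, and both intervals include 0. Ndufa10 lay on the other side, with 51.4 and 37.8 in astrocyte-like (-0.44 [-0.81 to -0.07]), 42.0 and 28.9 in immature OL-lineage (-0.54 [-0.92 to -0.16]) and 49.4 and 42.2 in interneuron-like cells (-0.23 [-0.53 to 0.07]). The 2 genes with most UMIs differed less. Ndufs4 had 88.1 and 90.3 in excitatory neuron-like cells (0.03 [-0.05 to 0.12]) and 116 and 105 in microglia-like cells (-0.15 [-0.40 to 0.11]), and Ndufs1, the subunit with most of the iron-sulfur clusters, had 52.1 and 52.2 (0.00 [-0.11 to 0.11]) and 62.1 and 63.2 (0.02 [-0.32 to 0.38]). Ndufb11 was 1 of the 3 genes past 1.5-fold in excitatory neuron-like cells without cluster 2, with 6.83 and 11.4 (0.74 [0.48 to 1.01]). As an X-linked gene it was also taken in WMI cells split by Xist. Its log2 ratio was 0.69 with the cells that had a Xist UMI and 0.87 with those that had none. In immature OL-lineage cells the 2 values were 0.62 [0.03 to 1.23] and 0.15 [-0.62 to 0.90], in microglia-like cells 0.52 [-0.09 to 1.16] and 0.36 [-0.32 to 1.07], and in interneuron-like cells 0.74 [0.01 to 1.46] and 1.49 [0.74 to 2.23]. Cells with Xist thus had the larger ratio in some classes and the smaller one in others, within wide intervals.

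Complex II is the only complex without a mitochondrially encoded subunit. Sdha, the flavoprotein that oxidises succinate, had 60.8 CPM (control) and 76.6 CPM (WMI) in immature OL-lineage cells (0.33 [0.05 to 0.61]), and 80.7 and 86.3 in astrocyte-like cells (0.10 [-0.17 to 0.37]). Sdhb, the iron-sulfur subunit, had 25.1 and 37.4 (0.57 [0.15 to 1.01]) in the former and 31.1 and 42.3 (0.44 [-0.02 to 0.94]) in microglia-like cells. The membrane anchors Sdhc and Sdhd were taken in excitatory neuron-like cells, where Sdhc had 27.4 and 22.1 (-0.31 [-0.47 to -0.15]) and Sdhd had 4.69 and 3.11 (-0.59 [-1.02 to -0.18]). Without cluster 2 these ratios were -0.20 and -0.26. The summed complex had log2 ratios of 0.34 [0.15 to 0.54] in immature OL-lineage cells and -0.23 [-0.30 to -0.16] in excitatory neuron-like cells (-0.12 [-0.19 to -0.05] without cluster 2).

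In complex III, the catalytic Rieske protein gene Uqcrfs1 and the small subunit gene Uqcr10 had the lowest ratios of excitatory neuron-like cells. Uqcrfs1 had 9.08 CPM (control) and 4.62 CPM (WMI) (-0.97 [-1.31 to -0.65]), and 6.60 and 4.59 without cluster 2 (-0.53 [-0.88 to -0.18]). Uqcr10 had 23.2 and 12.3 (-0.92 [-1.12 to -0.72]), and 14.3 and 12.1 without it (-0.24 [-0.47 to -0.02]). Both therefore stayed lower in WMI cells, by less than 1.5-fold. The core protein genes Uqcrc1 and Uqcrc2 had 29.4 and 22.8 (-0.36 [-0.52 to -0.21]) and 42.1 and 43.9 (0.06 [-0.06 to 0.18]) there, and Uqcrc2 had 60.6 and 51.4 (-0.24 [-0.51 to 0.03]) in interneuron-like cells. In astrocyte-like cells the hinge protein gene Uqcrh had the highest ratio of the members, 0.10 [-0.28 to 0.49], which is within counting error of 0. Over the 20 named clusters of both libraries, complex III was lower in WMI cells in 15, with the interval below 0 in 6.

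In complex IV, Cox6a1, the form of a regulatory subunit found outside muscle, was higher in WMI cells of 4 classes, and Cox6c was higher in some classes and lower in others. Cox6a1 had 28.3 CPM (control) and 60.9 CPM (WMI) in immature OL-lineage cells (1.11 [0.73 to 1.5]). It had 23.0 and 29.4 in excitatory neuron-like cells (0.35 [0.20 to 0.51]), 19.0 and 29.3 without cluster 2 (0.62 [0.46 to 0.79]), 25.9 and 36.6 in interneuron-like (0.50 [0.13 to 0.86]), 40.0 and 55.8 in microglia-like (0.48 [0.07 to 0.91]) and 31.2 and 35.9 in astrocyte-like cells (0.20 [-0.23 to 0.63]). Without cluster 9 the microglia-like ratio was 0.23 [-0.20 to 0.68]. Cox6c had 50.2 and 90.3 in immature OL-lineage cells (0.85 [0.56 to 1.14]) but 56.2 and 43.5 in astrocyte-like (-0.37 [-0.72 to -0.02]) and 74.5 and 58.3 in microglia-like cells (-0.35 [-0.68 to -0.02]). The direction for Cox6c thus differed between classes, and this difference was not tested. Cox8a and Cox4i1 are the ubiquitous forms with most UMIs of the complex. Cox8a had 47.9 and 78.1 (0.71 [0.41 to 1.01]) and Cox4i1 59.3 and 72.0 (0.28 [0.00 to 0.57]) in immature OL-lineage cells, and Cox4i1 had 36.2 and 63.2 (0.81 [0.51 to 1.10]) in interneuron-like cells. Cox5b, a subunit facing the matrix, had 44.9 and 27.2 in microglia-like cells (-0.72 [-1.16 to -0.27]), the lowest ratio of that class. Ndufa4 had the third highest ratio of astrocyte-like cells, 0.05 [-0.32 to 0.43].

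In the OL lineage, these complex IV genes were also taken in the OPC-like and pre-OL-like stages apart. For Cox6a1 the OPC-like ratio was 1.00 [0.51 to 1.51] and the pre-OL-like one 1.27 [0.64 to 1.95], for Cox8a they were 0.60 [0.19 to 1.02] and 0.73 [0.27 to 1.22], and for Cox6c 0.84 [0.45 to 1.24] and 0.77 [0.34 to 1.24]. Of 30 members counted in OPC-like cells 5 were at least 1.5-fold higher (Cox6a1, Cox6c, Cox8a, Ndufc2 and Ndufs3), beside 4.61% of all genes, and 3 were lower (Atp5k, the long Atp5o locus and Cox7b), beside 2.39%. Of 28 in pre-OL-like cells 6 were higher (Cox6a1, Cox6c, Cox7a2, Cox8a, Ndufa13 and Ndufc2), beside 6.04%, and 1 was lower (the long Atp5o locus), beside 4.39%. Cox6a1, Cox6c, Cox8a and Ndufc2 passed in both stages, and in both the share of higher members was above the background. These genes had already passed in the pooled class, which holds the same cells, so the stages are no separate check on them. In OPC-like cells the share of lower members was above it too, at 10.0% beside 2.39%.

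In complex V, the long Atp5o locus had the lowest ratio of 3 classes and a negative one in all 5. It had 45.9 CPM (control) and 23.9 CPM (WMI) in immature OL-lineage cells (-0.94 [-1.33 to -0.55]), 98.2 and 58.4 in interneuron-like (-0.75 [-0.99 to -0.51]), 63.4 and 39.9 in excitatory neuron-like (-0.67 [-0.78 to -0.56]), 131 and 85.1 in astrocyte-like (-0.62 [-0.86 to -0.39]) and 43.5 and 28.8 in microglia-like cells (-0.60 [-1.03 to -0.15]). The short Atp5o gene, whose span the long one overlaps, had ratios of -0.53 [-0.78 to -0.29] in excitatory neuron-like cells and -0.13 [-0.39 to 0.13] without cluster 2. Atp5k, which encodes the e subunit of the membrane part, had 38.9 and 26.8 in immature OL-lineage cells (-0.54 [-0.93 to -0.14]), 66.9 and 45.0 in microglia-like cells (-0.57 [-0.92 to -0.22]) and 41.5 and 26.5 in astrocyte-like cells (-0.65 [-1.08 to -0.22]). Atp5c1, the gamma subunit of the rotating stalk, had 81.1 and 54.2 in astrocyte-like cells (-0.58 [-0.88 to -0.28]). The catalytic beta subunit gene Atp5b had 77.5 and 61.4 there (-0.34 [-0.63 to -0.04]) and 47.1 and 64.8 in immature OL-lineage cells (0.46 [0.15 to 0.78]).

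The c subunit, which forms the rotor ring, is encoded by Atp5g1, Atp5g2 and Atp5g3. Atp5g1 had 31.6 and 16.8 in control and WMI excitatory neuron-like cells (-0.91 [-1.09 to -0.74]), 21.7 and 16.6 without cluster 2 (-0.39 [-0.57 to -0.20]) and 37.6 and 16.7 in astrocyte-like cells (-1.17 [-1.68 to -0.67]). Atp5g3 had 15.1 and 13.9 (-0.12 [-0.33 to 0.09]) in the second of these and 35.2 and 20.8 (-0.76 [-1.24 to -0.28]) in astrocyte-like cells. Atp5g2 had 8.33 and 7.53 (-0.15 [-0.43 to 0.14]) and 15.4 and 13.5 (-0.19 [-0.85 to 0.48]). Atp5g1 had the lowest ratio of the 3 in both classes, with intervals that overlap those of Atp5g3.

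Promoter sequences were taken from RefSeq (GRCm38.p6) for 66 of the 90 genes, as 250 bases before to 50 bases after the start. Nuclear respiratory factor 1 (NRF1), ETS factors such as GABP, YY1 and SP1 are the factors best known at promoters of these genes. Matches were searched on both strands to GCGCA and GCGC set apart by any 1 base (NRF1 type), CCGGAAG (ETS type), ATGGCGGC (YY1 type) and GGGCGG (SP1 type). Some genes have more than 1 window, so shares are given over windows. The NRF1 type was found in 23.9% of the 71 windows of these genes and in 4.60% of all 32851 windows. For the ETS type the shares were 22.5% and 8.86%. The YY1 type was found in 9.86% and 2.24%, and the SP1 type in 39.4% and 35.7%. Of 63 matched genes counted in excitatory neuron-like cells without cluster 2, the 16 with an NRF1-type match had a median log2 ratio of -0.22 and the 47 without it of 0.00. In immature OL-lineage cells the medians were -0.03 and 0.13, in astrocyte-like cells -0.37 and -0.19, in interneuron-like cells -0.14 and 0.08 and in microglia-like cells -0.02 and 0.02. Genes with and without an ETS-type match, in the same order of classes, had medians of -0.01 and -0.07, 0.25 and 0.00, -0.25 and -0.25, 0.27 and 0.00 and 0.19 and -0.05. The ETS type thus went with the higher median in 4 of the 5 classes, with nearly equal medians in astrocyte-like cells. The NRF1 type went with the lower median in all 5. In excitatory neuron-like cells with cluster 2 the ETS-type medians were -0.37 and -0.34, the other way round, and the NRF1-type ones -0.55 and -0.33. Without cluster 9 the microglia-like medians were -0.04 and -0.20 for the ETS type and -0.21 and -0.11 for the NRF1 type. These are descriptions with no test, and a match of letters is not a bound site.

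A pair of complex IV genes with high ratios, Cox6a1 and Cox8a, and a pair of complex V genes with low ratios, Atp5k and Atp5g1, are shown from 250 bases before to 30 bases after the start, 5′ to 3′ along the gene. They are shown because they lie at the 2 ends of the comparison in OL-lineage or astrocyte-like cells, and capitals mark NRF1-type and ETS-type matches on either strand. All 4 genes are on the minus strand, at Cox6a1 (chr5:115348929-115349208), Cox8a (chr19:7217587-7217866), Atp5k (chr5:108434370-108434649) and Atp5g1 (chr11:96075602-96075881).
Cox6a1: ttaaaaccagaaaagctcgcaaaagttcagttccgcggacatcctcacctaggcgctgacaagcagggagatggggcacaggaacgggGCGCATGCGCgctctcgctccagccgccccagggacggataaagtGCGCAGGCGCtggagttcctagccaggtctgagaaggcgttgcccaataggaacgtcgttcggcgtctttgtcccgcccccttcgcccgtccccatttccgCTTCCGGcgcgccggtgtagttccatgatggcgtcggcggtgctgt
Cox8a: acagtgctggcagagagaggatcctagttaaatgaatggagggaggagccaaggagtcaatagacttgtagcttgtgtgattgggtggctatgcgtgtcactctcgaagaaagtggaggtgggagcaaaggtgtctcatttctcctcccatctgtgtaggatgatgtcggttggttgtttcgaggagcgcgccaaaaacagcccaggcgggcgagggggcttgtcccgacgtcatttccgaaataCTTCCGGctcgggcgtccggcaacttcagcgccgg
Atp5k: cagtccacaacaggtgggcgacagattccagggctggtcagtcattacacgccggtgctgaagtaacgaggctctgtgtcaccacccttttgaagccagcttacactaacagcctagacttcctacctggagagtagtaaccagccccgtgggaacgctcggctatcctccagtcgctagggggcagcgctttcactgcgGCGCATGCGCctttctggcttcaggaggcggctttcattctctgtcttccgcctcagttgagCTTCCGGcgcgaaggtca
Atp5g1: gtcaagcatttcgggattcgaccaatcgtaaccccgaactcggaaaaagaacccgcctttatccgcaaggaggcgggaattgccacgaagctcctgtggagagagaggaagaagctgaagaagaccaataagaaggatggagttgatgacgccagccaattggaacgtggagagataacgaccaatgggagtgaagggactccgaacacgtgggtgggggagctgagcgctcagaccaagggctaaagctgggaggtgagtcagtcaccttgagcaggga
The Cox6a1 window holds 2 NRF1-type and 1 ETS-type matches, that of Atp5k holds 1 of each, that of Cox8a holds 1 ETS-type match, and that of Atp5g1 holds neither. Cox6a1 and Atp5k, with log2 ratios of 1.11 and -0.54 in immature OL-lineage cells, therefore share both kinds of match.

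Tissue-restricted isoforms were rare, and few UMIs were spread over the clusters. Cox6a2, the heart and muscle form of the Cox6a subunit, was taken in interneuron-like cluster 15, the cluster led by Kcnc2. There it had 15 UMIs in control cells (7.03 CPM [3.93 to 11.6]) and 11 in WMI cells (8.53 [4.26 to 15.3]). Excitatory neuron-like cluster 1 had 0.442 [0.121 to 1.13] in control and 0.978 [0.393 to 2.01] in WMI cells, so these intervals did not meet those of cluster 15. Shallow cluster 2 had 7.93 in control cells from 20 UMIs. Cox6b2, known from testis, had 5.40 and 6.24 in pre-OL-like cells, from 5 and 15 UMIs, and 0.332 and 0.419 in excitatory neuron-like cluster 1. In control cells of cluster 2 it had 4.76 from 12 UMIs, near the control pre-OL-like level. Both genes are short, at 953 and 1303 bp, and their levels between classes rest on few UMIs. The remaining isoforms had few UMIs or none. Over all kept cells Cox4i2 had 15 control and 21 WMI UMIs, Cox7a1 19 and 18, Ndufa4l2 10 and 6, and Cox8b 1 and 1. Cox8c had no UMI in either library, and the limit set for such a gene was 3 UMIs per library. The widely expressed partners Cox6a1, Cox4i1, Cox6b1, Cox7a2 and Cox8a had 3551, 5959, 3582, 2793 and 6349 UMIs over both libraries. The supercomplex factor Cox7a2l had 2215 and the X-linked Cox7b 4316.

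Neighbouring pathways were described with the same 1.5-fold rule and the same background shares. Assembly factors of the respiratory complexes were taken in WMI excitatory neuron-like cells without cluster 2. There 2 of 43 were higher (Coa5 and Sco2, beside 5.0% of all genes) and 1 was lower (Coa6, beside 4.51%). In astrocyte-like cells none of 18 passed, beside 11.9% of all genes higher and 5.6% lower. In microglia-like cells 5 of 16 glycolysis genes were higher (Eno1, Gpi1, Pfkl, Pfkm and Pkm) and 2 without cluster 9 (Pfkl and Pkm), in a class where 15.2% and 16.2% of all genes were. The summed glycolysis ratio was 0.25 [0.16 to 0.34] there and -0.11 [-0.19 to -0.02] in astrocyte-like cells. Regulators of mitochondrial biogenesis include Nrf1, Gabpa, Tfam and Ppargc1a. Of these regulators none of 13 passed in excitatory neuron-like, none of 8 in interneuron-like and none of 10 in immature OL-lineage cells. Over all genes the higher and lower shares were 3.42% and 8.62%, 5.09% and 3.06%, and 5.9% and 3.6% in these classes. With so few regulators counted, such shares leave few or none to be found, so no lack of change is read from them. In astrocyte-like cells 1 of 6 was higher (Gabpb1, beside 11.9% of all genes). In microglia-like cells 1 of 10 was higher (Pprc1, beside 15.2%), and 2 of 9 without cluster 9 (Esrra and Pprc1, beside 16.2%). Cyc1, the cytochrome c1 gene of complex III that the symbol rule leaves out, was at least 1.5-fold lower in WMI astrocyte-like, microglia-like and excitatory neuron-like cells, the last only with cluster 2.

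Cells of a class with more mitochondrial RNA also held more of the nuclear transcripts in most cases. When cells were put in 3 strata by their share of mitochondrial UMIs, with the same limits in both libraries, control excitatory neuron-like cells went from 1535 through 2283 to 3421 CPM, and WMI cells from 1344 through 1453 to 1723. Median depth went the other way, from 10656 to 2506 UMIs in control and from 14184 to 8533 in WMI cells. The control cells here include shallow cluster 2 (1167 cells, median depth 1745 UMIs). Strata without that cluster are not given, and its part in the control rise was not tested. In astrocyte-like cells the values were 2629, 2705 and 2673 in control and 2012, 2087 and 2480.1 in WMI cells, lower in WMI cells in all 3 strata. In immature OL-lineage cells they were 2053 and 2355 in the lower 2 control strata and 1991 and 2053 in the WMI ones. The top stratum there held 10 control and 448 WMI cells, at 2531 and 2533, so WMI cells did not exceed control cells beyond counting error in any stratum. Microglia-like cells had 2844, 2989 and 2698 in control and 2677, 2957 and 3028 in WMI cells. Control astrocyte-like and microglia-like cells are thus the exceptions to that order, with their highest values in the middle stratum.

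**Figure D4:**
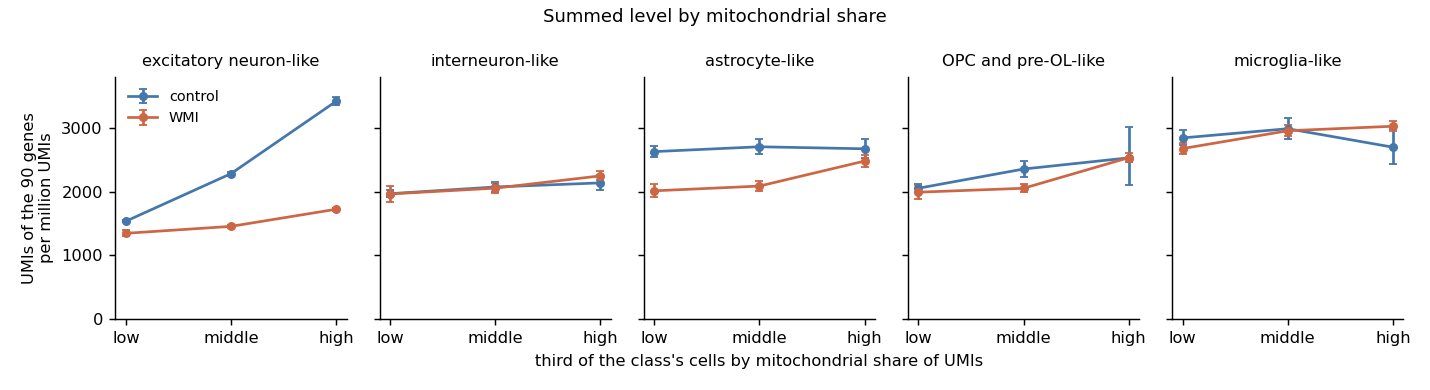
Summed level of the 90 genes (CPM) in 3 strata of cells by mitochondrial share, for each class and library, with 95% counting intervals. Control excitatory neuron-like cells reach 3421 in the top stratum, and WMI astrocyte-like cells lie below control cells in each stratum.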

How the data were processed

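The data were scRNA-seq UMI tables of mouse cortex, 1 control and 1 WMI library. Each deposited value is a count of UMIs for a gene in a barcode, written by the authors' run of Cell Ranger 6.1.1 (per the file headers) with no scaling. The submitters' processing notes name mm9 and Seurat, whereas the 55450 gene names and identifiers are those of GENCODE M21 (GRCm38), which was used for spans and overlaps. Members and gene lists were chosen with earlier results of these data known.

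Cells had to hold 1000 UMIs, 500 genes and at most 10% mitochondrial RNA, and 785 control and 542 WMI predicted doublets were removed, found with simulated ones (2 per cell, 30 principal components). Cells were integrated and clustered with Seurat 5.3.0 in R 4.3.3 with Matrix 1.6.5 (2000 variable features, 30 dimensions, resolution 0.8), after the study's use of Seurat. Clusters were named from 16 marker lists, and those with too few markers of any list stayed unnamed. So did clusters led by mitochondrial genes, those with many markers of another class, and shallow ones with no leading marker. Unnamed clusters entered no class. UMIs were summed per library and class in Python 3.11.15 with numpy 2.4.6, scipy 1.17.1 and scikit-learn 1.9.0. Levels carry exact Poisson intervals, and ratios carry conditional binomial ones. Genes with 100 UMIs over both libraries in a class were counted. The level of a gene listed with no UMI was left at 0, and a limit of 3 counts was set beside it. The code was tested on simulated counts.

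The genes named are the 2 with most UMIs of each complex, the 3 highest and 3 lowest ratios of each class and of neurons to glia (with 200 UMIs), the known isoforms and paralogs, the 4 Sdh genes, the 5 longest and 5 shortest spans, and those in a count of 5 or fewer. Ndufa5, Ndufa11, Ndufa12, Atp5j, Uqcr11 and the other genes listed with larger counts were named after their values were seen. Alternatives covered the UMI minimum, doublets, resolution, denominator, weighting, strata, Xist and the counting threshold. Some results on genes outside the group are not reported here.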

Additional observations from a re-analysis of the deposited data

Results flagged for a closer look

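For 5 quantities the WMI to control ratio had opposite signs in different cell classes, each with a counting interval that leaves out 0. There is 1 library per group, and the difference between classes was not tested in any of them. The summed members had a log2 ratio of 0.087 in immature OL-lineage cells (OPC-like and pre-OL-like) and -0.28 in excitatory neuron-like cells. Complex I had 0.16 in interneuron-like cells and -0.23 in excitatory neuron-like cells, and complex II had 0.34 in immature OL-lineage cells and -0.23 in excitatory neuron-like cells. The excitatory neuron-like values include cluster 2, which is almost wholly from the control library. Without it they were -0.00503 for the summed members, 0.0328 for complex I and -0.12 for complex II, so that for the summed members and complex I the opposition to this class goes with that cluster, while astrocyte-like cells had -0.26 and -0.21. Over strata of mitochondrial share the immature OL-lineage value of the summed members turned to -0.12. Complex IV had 0.36 in immature OL-lineage cells and -0.18 in astrocyte-like cells. Cox6c was the single gene that met these rules, with 0.85 in immature OL-lineage cells and -0.37 in astrocyte-like cells, and it overlaps Vps13b on the opposite strand. Atp5b also had opposite signs in these classes, 0.46 and -0.34, but its ratios were not far enough apart to be flagged.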

How the results depend on the processing

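No paired analysis was possible because each group has 1 library. In excitatory neuron-like cells the log2 ratio of the summed members, -0.28, was -0.19 with 2000 UMIs as the minimum, -0.26 with doublets kept, -0.25 without cells that had a Xist UMI, -0.75 with each cell weighted equally, -0.0666 with clusters weighted equally, -0.68 over strata of mitochondrial share, -0.21 centred on the median gene and -0.34 over members that overlap no gene. Without clusters mostly of 1 library (cluster 2) it was -0.00503, which shows that the value rests on that cluster. In microglia-like cells 0.02 turned to -0.0516 with 2000 UMIs, -0.12 and -0.0759 at resolutions 0.4 and 1.6, -0.21 without clusters mostly of 1 library, -0.15 with clusters weighted equally, -0.0888 centred and -0.12 without cluster 9, and was 0.0709 without Xist cells. In astrocyte-like cells -0.26 was -0.18 with doublets kept and -0.35 centred. Over strata of mitochondrial share the interneuron-like ratio was 0.0203, and that of immature OL-lineage cells reversed, from 0.09 to -0.12, over the 2 lower strata, since the top one held 10 control cells. The cause of these shifts was not tested beyond the makeup of each alternative.

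With each cell weighted equally, levels in control and WMI cells were 2993 and 1785 CPM in excitatory neuron-like, 2119 and 2307 in interneuron-like, 2752 and 2348 in astrocyte-like, 2227 and 2423 in immature OL-lineage and 2981 and 3111 in microglia-like cells. Members past 1.5-fold were 11 in interneuron-like and 15 in astrocyte-like cells with 50 UMIs as the threshold, and 4, 1, 6 and 3 in interneuron-like, astrocyte-like, immature OL-lineage and microglia-like cells with 200, where fewer genes are counted, against 7, 9, 10 and 7 as reported. Centring gave 14 in astrocyte-like cells. These counts pool higher and lower members, and no share over all genes was set beside them. The astrocyte-like count, 9 as reported and 1 with 200 UMIs, thus depends on the threshold. Leaving out members that overlap a gene, the long Atp5o locus or cluster 9 was chosen after seeing the data. Class sums rest on many UMIs, whereas single genes in OL-lineage and microglia-like cells rest on few, so a missing difference there was not detectable at this depth.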

Other observations

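The unnamed clusters held 2762 control and 1639 WMI cells. Cluster 0, with 2331 control and 194 WMI cells, had 3039 and 3082 CPM of member UMIs at median depths of 2880.0 and 3397.5 UMIs. Cluster 12, with 57 control and 449 WMI cells, had 3082 and 5280 CPM of member UMIs. Mitochondrial RNA took 4.97% and 3.53% of its UMIs, and Ftl1, Gfap, Tmsb4x and Rpl32 are among its leading genes. Cluster 7 had 1521 in control and 1618 in WMI cells, near the excitatory neuron-like clusters, and was 90.7% WMI cells.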
